A study of Drosophila melanogaster with 12 samples.

Results

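The RR elements are 129 transposable element features of the fly annotation whose identifiers begin with RR. They were chosen by that identifier and by their transposable element biotype, with no use of a measured value, and they stand among 17589 features with reads in the 3 deposited count tables. The other 2625 transposable elements in those tables carry FBti identifiers and serve here as the comparison. The annotation lists 162 RR elements, of which 129 were in the tables.

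Transposable elements are DNA segments that copy or move themselves within a genome. LTR retrotransposons have long terminal repeats at the ends of their DNA and copy themselves through an RNA. Non-LTR retrotransposons also copy themselves through an RNA but lack these repeats, and DNA transposons are cut out and pasted by a transposase. In flies many copies sit in the compact heterochromatin around the centromeres, where small-RNA pathways and histone methylation keep them quiet, and the set of copies differs from strain to strain. A read that lies within a repeated element can match many copies, so a count assigned to 1 copy may include reads made from another.

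RNA was sequenced from heads of 2-day-old adults. Each genotype had 4 libraries, and 20 heads, of which 10 were from males and 10 from females, were pooled for each library. The control genotype was nSybGal4/w[1118], and the knockdowns carried the same driver with an RNAi transgene against ND-75, a core subunit of mitochondrial complex I. ND-75KDweak used the KK108222 transgene and ND-75KDstrong the HMS00853 transgene, which the study obtained in different strain backgrounds, and its methods also place the repressor Tub-Gal80ts in all 3 genotypes, which the labels do not mention. nSyb-Gal4 drives expression in neurons, whereas whole heads also hold glia, fat body, muscle and eye tissue. No library carried an RNAi line against an unrelated gene. Knockdown, transgene insertion and strain background, including the transposon copies each strain carries, therefore cannot be told apart in any comparison below. Nothing in the labels says that the pools came from separate crosses, so p-values measure the spread between pools, and in whole heads fewer cells of a type and less RNA per cell cannot be told apart.

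Libraries held between 19309456 and 34169998 counts. Control replicate 3 had the fewest features with a count (12966), ND-75KDweak replicate 2 was the shallowest, and ND-75KDstrong replicate 4 had the smallest TMM scaling factor (0.89). Results are given with and without these 3 libraries. ND-75 itself ranged from 709 to 1391 CPM (counts scaled to library size) in control, from 562 to 648 in ND-75KDweak and from 459 to 650 in ND-75KDstrong, and neither knockdown passed the edgeR test (adjusted p = 0.116 and 0.117). The 10 head markers summed to 32331 to 42515 CPM in control, 36295 to 42193 in ND-75KDweak and 28063 to 35133 in ND-75KDstrong, and the rhodopsin gene ninaE was lower in ND-75KDstrong than in ND-75KDweak (log2 fold change -0.51 ± 0.14, edgeR adjusted p = 0.0384). Of the 16 gonad markers 15 were in the tables. They summed to 1.82 to 2.87 CPM in control, 1.89 to 2.30 in ND-75KDweak and 2.90 to 4.31 in ND-75KDstrong. The germline markers nos, osk and bam had 8, 5 and 16 reads in all libraries together, whereas aub, AGO3 and vas had 377, 164 and 94. In ND-75KDstrong aub was higher than in control (log2 fold change 1.25 ± 0.28, edgeR adjusted p = 0.0414). It stood at 1.76 ± 0.454 CPM there against 0.726 ± 0.118 in control, so most of the higher marker sum came from this gene, which is also among the silencing genes below. The other markers went both ways, with higher means in ND-75KDstrong for AGO3 and Mst87F and lower means for vas, bgcn and Vm26Aa. The part of these differences in the results below was not tested.

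On the arms of chromosomes 2 and 3 the RR elements lay where the counted FBti insertions, those with reads, did not. On 2L they ran from 22.6 to 23.5 Mb, beyond the last counted FBti insertion at 22.4 Mb. On 2R they ran from 0.514 to 4.49 Mb, on 3L from 23.8 to 27.7 Mb and on 3R from 0.424 to 4.12 Mb. In each case this was on the centromere side of every counted FBti insertion of that arm. Annotated insertions without reads were left out here, among them FBti0215389, which overlaps RR48356 on 2R. In the annotation 19 RR elements overlapped another transposable element. The X held 5 RR elements between 21.95 and 23.2 Mb, where the counted FBti insertions extended to 23.0 Mb. By arm, 39 were on 2R, 34 on 3L, 33 on 3R, 10 on 2L, 5 on X and 3 on Y, and 5 lay on small scaffolds outside these sequences, among them RR45003 on a scaffold that the assembly maps to Y. Coordinates follow fly genome release 6.

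The RR elements were also longer. Their median length was 5322 bp (quartiles 4686 and 7385 bp), and 110 of them (85.3%) reached 4 kb, against a median of 429 bp and 17.1% for the FBti insertions. The annotation named 48 different elements among them, most often F with 11 copies, S with 9 and Doc with 7, and gave no name to 18. For 18 of the 26 elements with at least 2 RR copies, all copies agreed in length within 2%. The 4 copia copies measured 5146 to 5157 bp, the 9 S copies 1719 to 1734 bp and the 4 Transpac copies 5248 to 5251 bp. Grouped by the protein each feature resembles, 61 were LTR retrotransposons, 33 non-LTR retrotransposons and 9 DNA transposons, and 26 had no class. The element name was not used for this, so elements of a known class can be among the 26, as diver, an LTR retrotransposon, is.

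Genes of the pericentromeric regions can have very long introns, and 58 RR elements lay in an intron or gene span and 2 overlapped an exon, while 69 lay in no gene. The 4 genes with most held 33 of them, namely Myo81F with 10, Pzl with 10, CG17684 with 8 and Snap25 with 5. Snap25 encodes a synaptic vesicle fusion protein. Of the 60 elements within a gene, 25 ran in the direction of that gene. The library kit did not mark strand, so reads of an element and of the gene around it could not be separated by direction.

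Reads on RR elements were rare. All 129 together held 9286 counts, or 0.00287% of all counts, against 0.0867% for the FBti insertions. The median RR element had 20 reads over the 12 libraries and 46 had fewer than 12. For the shorter but more numerous FBti insertions the median was 13 reads, and 1239 of 2625 had fewer than 12. The RR element with the most, the ZAM copy RR48383, held 21.6% of all RR counts. Within an element the reads could be uneven too: in 21 of the 26 elements with several copies, over 50% of the reads were on 1 copy. In an element with 2 copies this holds unless both tie, so the count shows little for such elements. The share was 93.5% for blood and 93.4% for 1360, with 2 copies each. It was 83.6% for the 4 roo copies and 72.0% for the 3 gypsy copies, whereas the highest of the 11 F copies held 21.9%.

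**Figure D1:**
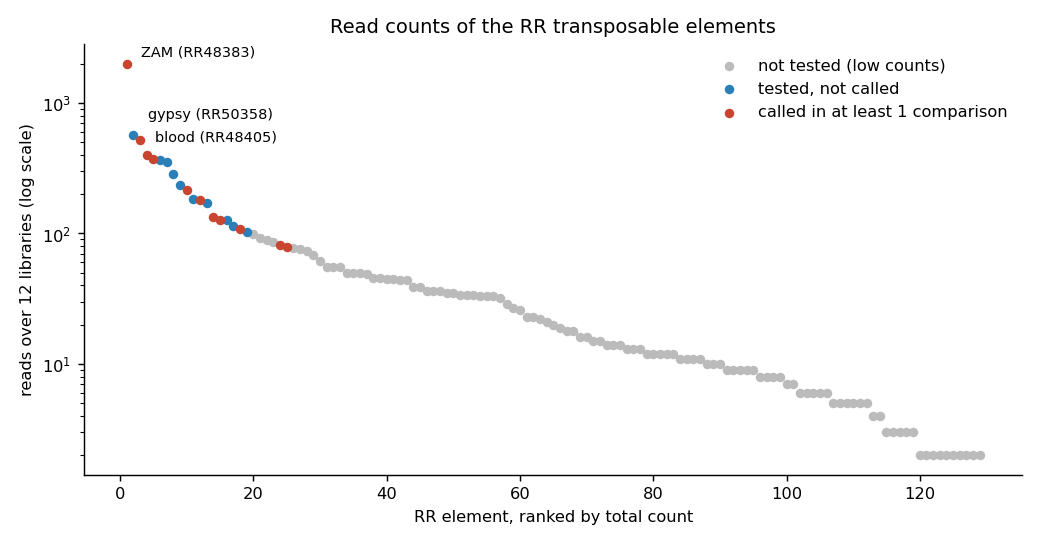
Reads of each of the 129 RR elements over all 12 libraries (vertical axis, log scale), ranked from the highest to the lowest (horizontal axis). Red points were called in at least 1 comparison, blue points were tested and not called, and grey points had too few reads to be tested. The ZAM copy RR48383 stands first with 2005 reads, and 108 of the 129 elements were never tested.

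The summed level of all RR elements was 19.7 ± 4.65 CPM in control, 39.7 ± 11.6 in ND-75KDweak and 26.1 ± 3.49 in ND-75KDstrong (mean ± SD, n = 4). The single libraries were 21.5, 19.2, 13.5 and 24.5 CPM in control, 50.8, 26.8, 48.0 and 33.2 in ND-75KDweak, and 24.6, 29.2, 28.6 and 21.8 in ND-75KDstrong. Every ND-75KDweak library lay above every control library, and the ranges of control and ND-75KDstrong overlapped. Without the ZAM copy the sums were 19.6 ± 4.61, 21.5 ± 3.64 and 25.4 ± 3.32 CPM, and all 3 ranges overlapped. The FBti insertions summed to 727 ± 168, 780 ± 66.5 and 1038 ± 223 CPM. No test was made on these sums.

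By arm, the sums parted in different directions. On 2R the sum was 5.62 ± 2.01 CPM in control, 24.6 ± 8.69 in ND-75KDweak and 6.92 ± 1.66 in ND-75KDstrong, and without the ZAM copy it was 5.58 ± 1.96, 6.38 ± 0.628 and 6.23 ± 1.34. On 3R it was 7.18 ± 1.58, 4.43 ± 0.959 and 6.39 ± 0.241 CPM, so ND-75KDweak had the lowest mean there. The 5 elements on small scaffolds gave 0.185 ± 0.108, 0.109 ± 0.0188 and 3.37 ± 0.619 CPM, of which RR45003, on the scaffold mapped to Y, held 0.125, 0.00782 and 3.00. On 3L the sums were 5.29 ± 1.68, 7.57 ± 2.11 and 7.11 ± 1.30 CPM and on 2L 0.647 ± 0.125, 0.664 ± 0.118 and 0.644 ± 0.315, with overlapping ranges. On X they were 0.441 ± 0.27, 1.85 ± 0.683 and 1.42 ± 0.342 CPM, both knockdowns lying above control in every library. The 3 elements on Y summed to 0.302 ± 0.0717, 0.496 ± 0.278 and 0.209 ± 0.0329 CPM.

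**Figure D2:**
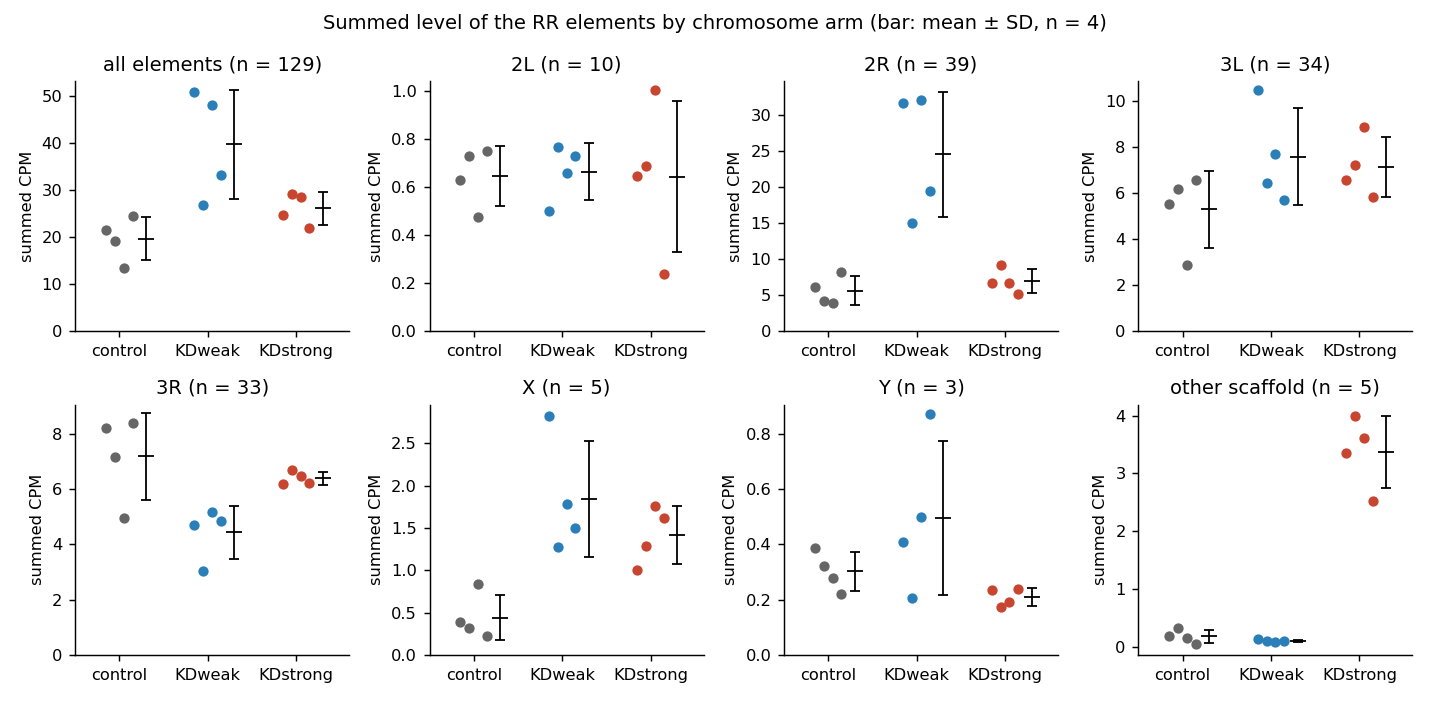
Summed CPM of the RR elements (vertical axis) in each library of the 3 genotypes, for all 129 elements and for each chromosome arm; n in a panel title is the number of elements summed, and bars are the mean ± SD of the 4 libraries. The ND-75KDweak points lie high on 2R, where the ZAM copy is, and the ND-75KDstrong points lie high on the small scaffolds (panel named other scaffold), where the S copy RR45003 is.

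Single elements were compared between genotypes with edgeR's quasi-likelihood test across all features, and a call means a Benjamini-Hochberg adjusted p under 0.05. The test needs about 10 reads in at least 4 of the 8 libraries of a pair, from either genotype, and 21 RR elements reached that in some comparison and 10 in all 3. An element with reads in a single genotype can only enter through that genotype, so the counts and medians below describe the elements tested and not the whole set. In ND-75KDweak against control 4 of 15 tested elements were higher and 2 lower, where 2.56% of all tested features were higher and 3.98% lower (6.54% in all). In ND-75KDstrong against control 4 of 15 were higher and 1 lower (1.78% and 0.589% of all features, 2.37% in all), and in ND-75KDstrong against ND-75KDweak 6 of 19 were higher and 3 lower (8.18% and 3.09%, 11.3% in all). The libraries of the compared genotypes did not overlap for 6 of 15, 6 of 15 and 10 of 19 tested elements, which was so for 15.4%, 8.61% and 18% of all tested features. The median log2 fold change of the tested RR elements was 0.73, 0.49 and -0.071 in these comparisons, against -0.0065, -0.015 and 0.016 for all tested features. The filter partly fixes the sign of these medians. ZAM RR48383 and R2 RR48361 entered against control only through their ND-75KDweak reads, and S RR45003 and diver RR48316 only through their ND-75KDstrong reads. The medians therefore show no shift of the RR elements as a set. The comparisons share libraries.

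With no filter on low counts every listed element was tested, and the calls were 12 of 114 in ND-75KDweak against control, 8 of 119 in ND-75KDstrong against control and 17 of 118 between the knockdowns, where 4.94%, 2.02% and 7.24% of all features were called. Without the libraries that stand apart the filtered test called 8, 4 and 12 RR elements instead of 6, 5 and 9, a choice made after the data were seen. In all, 11 elements were called in at least 1 comparison. By the protein they resemble, 7 were LTR retrotransposons, 2 non-LTR retrotransposons and 1 a DNA transposon. The remaining 1, diver RR48316, had no class by this rule, although diver is an LTR retrotransposon. The FBti insertions gave 19 higher and 7 lower of 358 tested in ND-75KDweak against control, 33 and 5 of 384 in ND-75KDstrong against control, and 41 and 16 of 407 between the knockdowns.

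**Figure D3:**
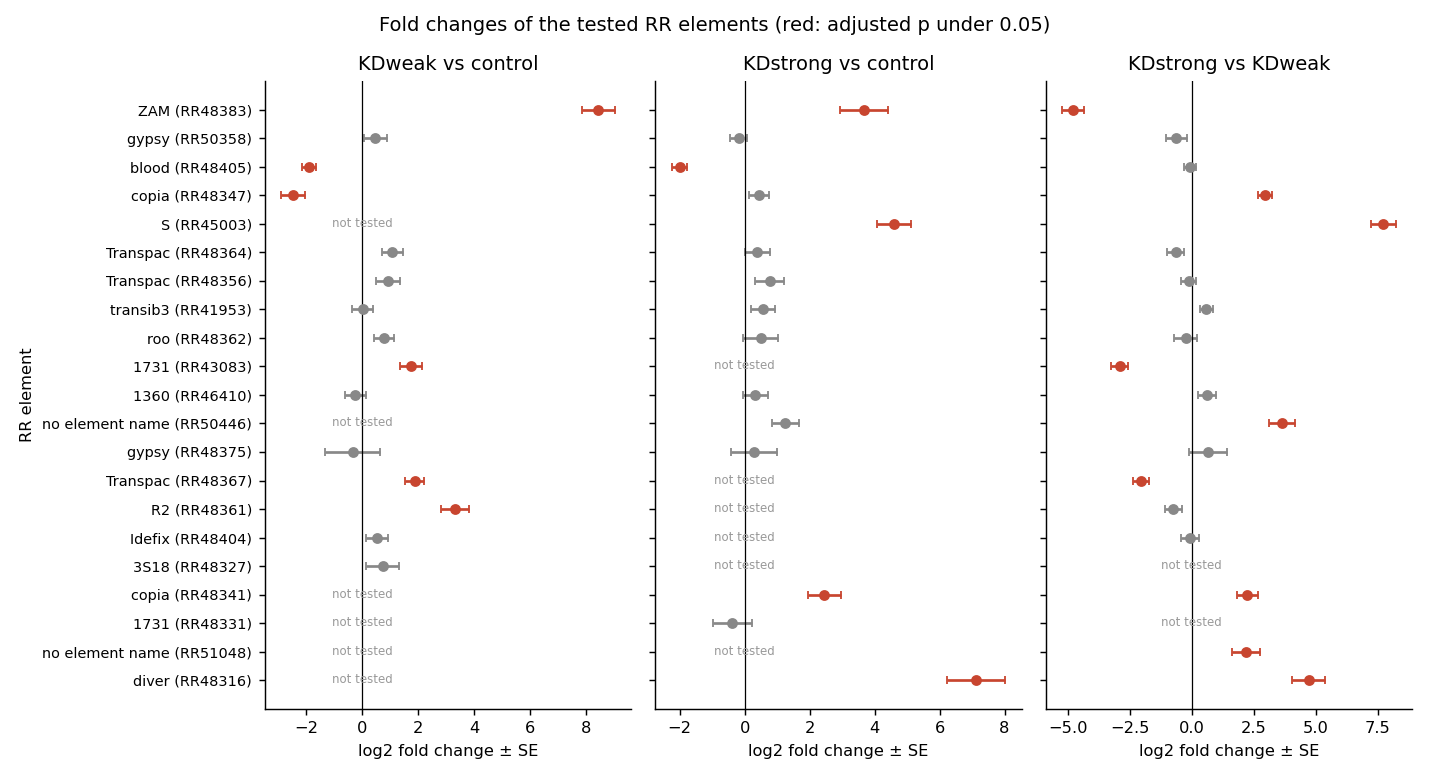
Log2 fold change ± SE (horizontal axis) of the 21 RR elements tested in any comparison (vertical axis, ordered by total reads), in the 3 comparisons; red points have an adjusted p under 0.05 and elements below the count filter are marked as not tested. ZAM stands at 8.43 in ND-75KDweak against control, blood is near -2 in both knockdowns, and copia RR48347 is at -2.48 in ND-75KDweak and 0.45 in ND-75KDstrong.

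The highest level in ND-75KDweak was that of the ZAM copy RR48383 (2R:1808663-1817084, plus strand, 1321 bp from the noncoding gene CR41379). ZAM is an LTR retrotransposon with an envelope gene, known in flies for passing from the follicle cells to the oocyte. Its reads were 2, 0, 0 and 3 in control, 540, 172, 815 and 396 in ND-75KDweak, and 20, 29, 15 and 13 in ND-75KDstrong, so no groups overlapped. The levels were 0.0478 ± 0.0552, 18.2 ± 8.2 and 0.689 ± 0.378 CPM. The log2 fold change was 3.67 ± 0.73 (SE) in ND-75KDstrong against control (edgeR adjusted p = 0.0241) and -4.77 ± 0.44 between the knockdowns (adjusted p = 0.000169), beside 8.43 ± 0.59 in ND-75KDweak against control. The ND-75KDstrong call rests on few reads: without control replicate 2 or 3, or without ND-75KDstrong replicate 1 or 2, the edgeR adjusted p lay between 0.051 and 0.0686. Only 1 FBti insertion of ZAM, 514 bp long, had reads, and its levels were 0.314 ± 0.138, 0.561 ± 0.129 and 0.371 ± 0.156 CPM. This fragment was not called in ND-75KDweak against control (log2 fold change 0.86 ± 0.42, adjusted p = 0.271).

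The other 3 elements that were higher in ND-75KDweak than in control were R2, Transpac and 1731. R2 is a non-LTR retrotransposon that inserts at a fixed site of the ribosomal RNA genes, and its only RR copy, RR48361 (X:23220092-23223699), lay 2952 bp from a 28S rRNA pseudogene. Its reads were 2, 0, 2 and 3 in control, 17, 14, 24 and 17 in ND-75KDweak and 11, 12, 10 and 16 in ND-75KDstrong. Both knockdowns lay above control in every library, with a log2 fold change of 3.31 ± 0.51 in ND-75KDweak (edgeR adjusted p = 0.00314). The element did not pass the filter in ND-75KDstrong against control, and between the knockdowns the difference was -0.74 ± 0.33 (adjusted p = 0.203). Fitted with all 12 libraries together, R2 was also called in ND-75KDstrong against control. The pseudogene beside it stood at 0.258 ± 0.235, 0.412 ± 0.206 and 0.635 ± 0.714 CPM and was not called in ND-75KDweak (adjusted p = 0.622).

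Transpac is an LTR retrotransposon of which 4 RR copies of nearly equal length were counted. The copy RR48367 (3L:26704582-26709829) had 6, 4, 5 and 9 reads in control, 17, 22, 24 and 22 in ND-75KDweak and 6, 7, 6 and 5 in ND-75KDstrong. ND-75KDweak lay above both other genotypes in every library. Its log2 fold change was 1.86 ± 0.35 against control (edgeR adjusted p = 0.0095) and -2.04 ± 0.33 between the knockdowns (adjusted p = 0.00286). The copies with more reads, RR48364 in an intron of Pzl and RR48356 on 2R, were at 1.07 ± 0.38 and 0.92 ± 0.44 in ND-75KDweak against control and were not called (adjusted p = 0.141 and 0.265). Summed over the 4 copies Transpac stood at 1.88 ± 0.978, 3.99 ± 0.52 and 2.62 ± 0.266 CPM. The 6 FBti insertions of Transpac summed to 1.29 ± 0.751, 1.92 ± 0.376 and 2.50 ± 0.573 CPM, with the highest mean in ND-75KDstrong instead.

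1731 is a copia-like LTR retrotransposon. RR43083 (3L:25368649-25373298), in an intron of lovit and against its direction, had 9, 11, 3 and 22 reads in control, 27, 29, 48 and 43 in ND-75KDweak and 7, 3, 11 and 2 in ND-75KDstrong. It was higher in ND-75KDweak than in control by 1.75 ± 0.40 on the log2 scale (edgeR adjusted p = 0.0228) and lower in ND-75KDstrong than in ND-75KDweak by 2.91 (log2 fold change -2.91 ± 0.35, adjusted p = 0.000621). Without control replicate 2, or without ND-75KDweak replicate 1, 3 or 4, the first call was lost (edgeR adjusted p between 0.0576 and 0.0748). RR48331 (2R:1516663-1521332), which overlaps an exon of Maf1 and was named after its values were seen, had 22, 8, 3 and 19 reads in control, 0, 0, 1 and 0 in ND-75KDweak and 19, 3, 14 and 13 in ND-75KDstrong. ND-75KDweak thus had the most reads on RR43083 and a single read on RR48331. The latter was below the filter in ND-75KDweak against control and was called only without it or with all libraries in 1 fit. Its pooled level in control was 51.8 times that in ND-75KDweak, with a 95% exact binomial interval of 8.9 to 2087 that covers counting error only, as do all such intervals and limits here.

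The blood copy RR48405 (3R:805626-812770, plus strand) lies in an intron of Myo81F, a myosin gene, and runs in its direction. Its reads were 80, 77, 61 and 117 in control, 18, 22, 28 and 18 in ND-75KDweak and 25, 18, 33 and 22 in ND-75KDstrong, and every control library lay above every knockdown library. The log2 fold change was -1.90 ± 0.26 in ND-75KDweak (edgeR adjusted p = 0.00166) and -2.002 ± 0.24 in ND-75KDstrong (adjusted p = 0.000918). Between the knockdowns it was -0.07 ± 0.26 (adjusted p = 0.899). Myo81F was at 1.77 ± 0.395, 1.30 ± 0.265 and 1.80 ± 0.645 CPM and was not called in either knockdown (adjusted p = 0.4 and 0.986). The 10 RR elements inside Myo81F summed to 3.74 ± 0.724, 1.00 ± 0.186 and 1.497 ± 0.321 CPM, most of it from this copy, and the other 9 to 0.466 ± 0.203, 0.139 ± 0.0491 and 0.678 ± 0.295. Another blood copy, RR48384 on 2R, had no read in control and 4, 9, 9 and 13 in ND-75KDweak, at least 11.7-fold higher against a floor of 3 reads over the control group, and 1 read in ND-75KDstrong. It was below the filter and was named after its values were seen. Of 5 FBti insertions of blood tested against control in each knockdown, only FBti0060499 was called, and it was lower in both knockdowns (log2 fold change -2.02 ± 0.33 and -1.52 ± 0.34, edgeR adjusted p = 0.00402 and 0.0459), and the 21 together gave 8.46 ± 1.02, 5.001 ± 0.602 and 5.13 ± 1.06 CPM.

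copia, the LTR retrotransposon after which its group is named, differed between the knockdowns. RR48347 (3R:4105093-4110238, 767 bp from CG42402) had 39, 41, 17 and 45 reads in control, 3, 5, 7 and 10 in ND-75KDweak and 74, 40, 72 and 47 in ND-75KDstrong. ND-75KDweak lay below both other genotypes in every library, while control and ND-75KDstrong overlapped. The log2 fold change was -2.48 ± 0.42 in ND-75KDweak against control (edgeR adjusted p = 0.00514), 0.45 ± 0.31 in ND-75KDstrong against control (adjusted p = 0.68) and 2.96 ± 0.29 between the knockdowns (adjusted p = 0.000227). CG42402 was at 28.8 ± 7.33, 31.0 ± 0.699 and 32.1 ± 8.09 CPM.

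The copia copy RR48341 (3L:26555434-26560590) followed another pattern, with 3, 1, 4 and 4 reads in control, 3, 2, 5 and 4 in ND-75KDweak and 29, 8, 34 and 12 in ND-75KDstrong. It was higher in ND-75KDstrong than in control by 2.45 ± 0.50 and than in ND-75KDweak by 2.24 ± 0.43 (edgeR adjusted p = 0.0287 and 0.00783). The call against control was lost without control replicate 1, 2 or 4 (edgeR adjusted p up to 0.0936), and the element fell below the filter without ND-75KDstrong replicate 1, 3 or 4. A further copia copy, RR48399 on 3L, had reads in ND-75KDstrong alone, 12, 9, 25 and 9, at least 15.7-fold above either other genotype by the floor of 3 reads over the group. It was below the filter, and it was named after its values were seen. The 26 FBti insertions of copia rose much further in sum, from 19.6 ± 2.61 CPM in control to 31.2 ± 4.45 in ND-75KDweak and 170 ± 17.7 in ND-75KDstrong. All 16 that were tested in ND-75KDstrong against control were higher, and of 10 tested in ND-75KDweak 3 were higher and 1 lower. The 4 RR copies summed to 1.56 ± 0.535, 0.426 ± 0.113 and 3.21 ± 0.595 CPM, so in ND-75KDweak the RR and FBti sums of copia lay on opposite sides of control, a contrast that was not tested.

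The S copy RR45003 was the element with the most reads in ND-75KDstrong. S is a DNA transposon of the Tc1 and mariner superfamily, and this copy lies at positions 38683 to 40412 of a scaffold that the assembly maps to the Y chromosome without placing it. Its reads were 2, 6, 4 and 0 in control, 0, 0, 1 and 0 in ND-75KDweak and 105, 80, 120 and 56 in ND-75KDstrong. Every ND-75KDstrong library lay far above all others. The log2 fold change was 4.60 ± 0.52 against control (edgeR adjusted p = 0.000599) and 7.72 ± 0.50 against ND-75KDweak (adjusted p = 2.09e-05), and the latter rests on a single read in ND-75KDweak (pooled ratio 309, 95% exact binomial interval 55.1 to 12233). Each pool held equal numbers of male and female heads. The male-specific RNA roX1 was at 217 ± 54.5, 346 ± 38.8 and 249 ± 65.0 CPM and the female yolk protein gene Yp1 at 5898 ± 1238, 11103 ± 2239 and 7313 ± 2650, neither called in ND-75KDstrong against control (edgeR adjusted p = 0.855 and 0.763) or between the knockdowns (0.154 and 0.152). Both were higher in ND-75KDweak than in control (edgeR adjusted p = 0.0386 and 0.0151), as was the yolk protein gene Yp2 (0.0035). The part of these sex-linked differences in the S values was not tested.

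The other 8 S copies had between 2 and 74 reads. Among them RR48337, in an intron of Myo81F, had 7, 0, 9 and 3 reads in control, 0, 0, 3 and 2 in ND-75KDweak and 10, 13, 18 and 9 in ND-75KDstrong. RR48379, in an intron of the helicase gene Dbp80, had 3, 2 and 29 reads in the 3 genotypes. Both were below the filter and were called between the knockdowns only without it; both were named after their values were seen. The 36 FBti insertions of S summed to 2.32 ± 0.229, 2.46 ± 0.574 and 1.94 ± 0.224 CPM, with overlapping ranges, whereas the 9 RR copies summed to 0.545 ± 0.102, 0.294 ± 0.139 and 3.91 ± 0.723.

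diver is an LTR retrotransposon of the BEL group, and its RR copy RR48316 (X:23056198-23062330, 5971 bp from CG17167) had no read in control. It had 0, 1, 0 and 1 reads in ND-75KDweak and 16, 12, 35 and 14 in ND-75KDstrong, which lay above both other genotypes in every library. ND-75KDstrong was at least 22.03-fold higher than control by the floor of 3 reads over the group (edgeR adjusted p = 0.00491), and the fitted log2 fold change of 7.13 depends on the prior count and is no bound. Against ND-75KDweak the log2 fold change was 4.71 ± 0.65 (adjusted p = 0.00132), on 2 reads in ND-75KDweak (pooled ratio 32.9, 95% exact binomial interval 8.81 to 277). The FBti insertion FBti0018971 of diver, of the same length of 6133 bp, was also higher in ND-75KDstrong than in control (log2 fold change 4.31 ± 0.33, edgeR adjusted p = 3.16e-05), and CG17167 stood at 10.7 ± 4.26, 10.7 ± 1.62 and 10.9 ± 2.14 CPM.

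The remaining 2 called elements have no name in the annotation and lie in introns of Snap25. RR50446 (3L:24217786-24225337), which resembles the 17.6 polyprotein and runs in the direction of Snap25, had 9, 15, 3 and 18 reads in control, 3, 3, 0 and 2 in ND-75KDweak and 38, 24, 45 and 20 in ND-75KDstrong. It was higher in ND-75KDstrong than in ND-75KDweak by 3.62 ± 0.53 on the log2 scale (edgeR adjusted p = 0.00178). Against control ND-75KDstrong lay above in every library, but at 1.25 ± 0.42 the difference was not called (adjusted p = 0.225). RR51048 (3L:24098288-24102904), which resembles the jockey polymerase and runs against Snap25, had 4, 2, 2 and 14 reads in control, 4, 1, 4 and 0 in ND-75KDweak and 12, 11, 17 and 10 in ND-75KDstrong. The difference between the knockdowns was 2.18 ± 0.58 (edgeR adjusted p = 0.0369), and of the 8 libraries only the omission of ND-75KDweak replicate 1 or ND-75KDstrong replicate 4 kept the call. It was lost without ND-75KDweak replicate 2 or ND-75KDstrong replicate 2 (edgeR adjusted p = 0.069 and 0.0812) and with no filter (0.0566), and the element fell below the filter without ND-75KDweak replicate 3 or 4, without ND-75KDstrong replicate 1 or 3, and with all libraries in 1 fit. Snap25 was at 182 ± 49.7, 199 ± 5.17 and 220 ± 64.2 CPM, with edgeR adjusted p of 0.722 between the knockdowns.

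**Figure D4:**
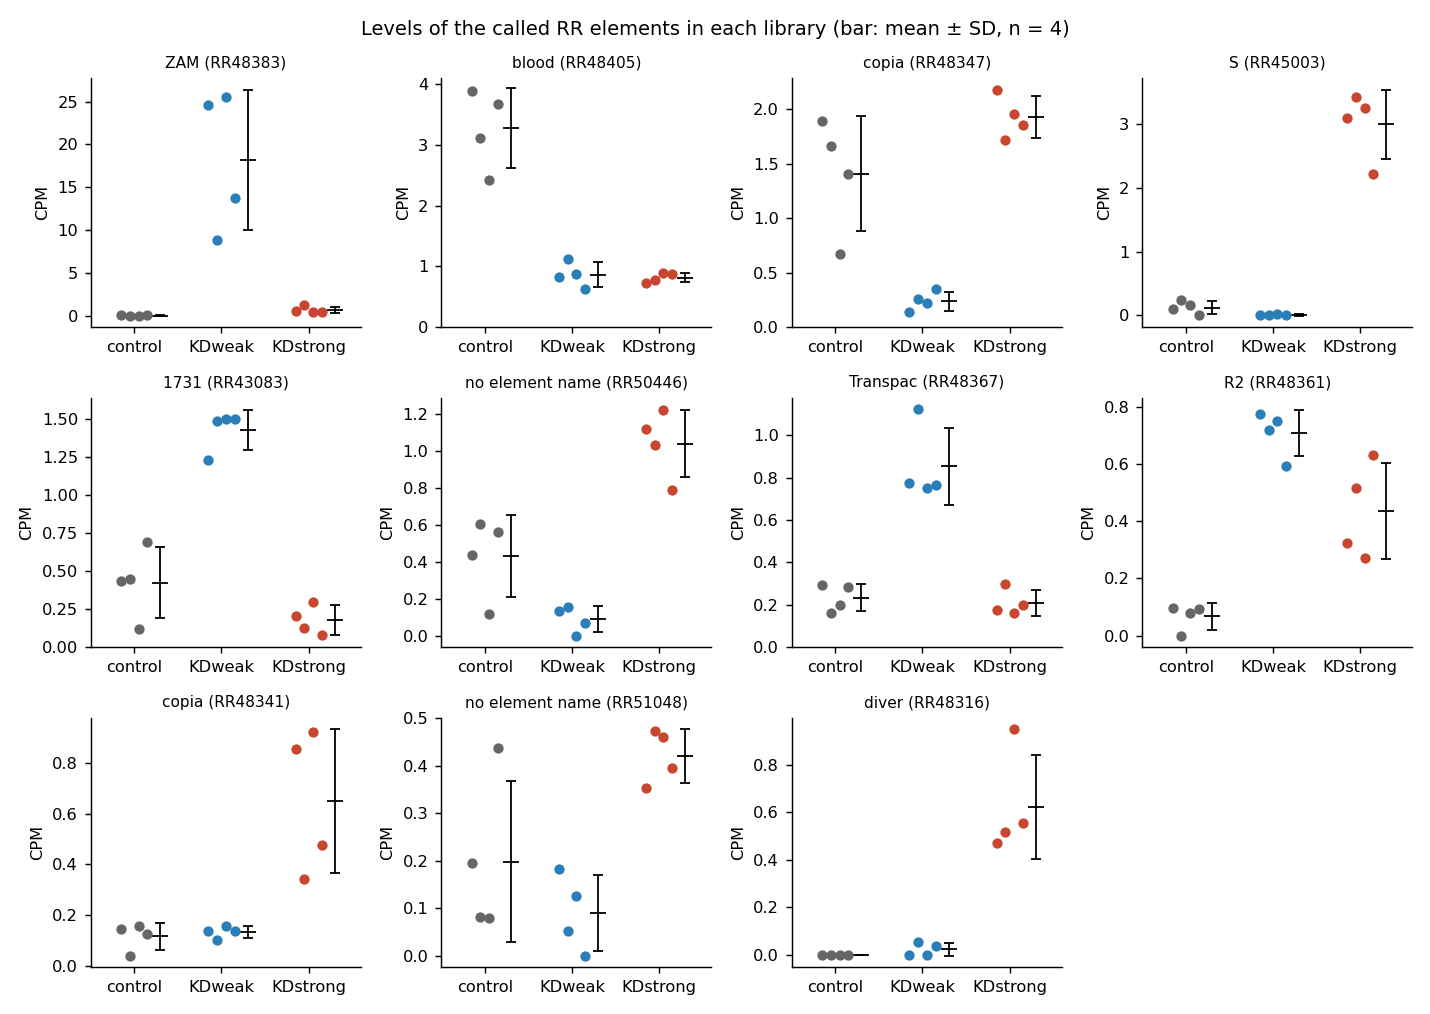
CPM (vertical axis, from 0) of each of the 11 called RR elements in every library of control, ND-75KDweak and ND-75KDstrong; bars are the mean ± SD of the 4 libraries. ZAM, 1731, Transpac and R2 are highest in ND-75KDweak, S, diver, copia RR48341 and both elements of Snap25 are highest in ND-75KDstrong, and blood is highest in control.

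Among the 8 elements with the highest mean level, 4 were called in no comparison. gypsy RR50358 (3L:24463589-24471049), a retrovirus-like LTR element and the second in reads, had 32, 48, 36 and 54 reads in control, 93, 30, 76 and 25 in ND-75KDweak and 35, 40, 61 and 37 in ND-75KDstrong. Its 4 ND-75KDweak libraries spread from 0.87 to 4.24 CPM, on both sides of the control range, and the difference was 0.46 ± 0.41 (edgeR adjusted p = 0.55). The transib3 copy RR41953, named as a DNA transposon but resembling the polymerase of a non-LTR element, was at 0.74 ± 0.32, 0.734 ± 0.106 and 1.11 ± 0.267 CPM (adjusted p = 0.992 and 0.675 against control). The other pair were the Transpac copies RR48364 and RR48356. The 8 elements with the highest level per kilobase were the same 8, led by ZAM at 0.748 and S RR45003 at 0.603 CPM per kb.

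Host genes and elements could be set side by side where many elements lay in 1 gene. The 10 elements inside Pzl, whose own level was between 0.131 and 0.23 CPM on average in each genotype, summed to 1.13 ± 0.391, 1.85 ± 0.659 and 1.47 ± 0.311 CPM. The 8 inside CG17684 summed to 0.962 ± 0.286, 0.477 ± 0.182 and 0.335 ± 0.0638 CPM, while CG17684 itself was higher in both knockdowns (log2 fold change 0.82 ± 0.13 and 0.95 ± 0.15, edgeR adjusted p = 0.00419 and 0.00573). The 5 inside Snap25 summed to 0.736 ± 0.371, 0.392 ± 0.145 and 1.92 ± 0.357 CPM, and the 4 inside lovit to 0.462 ± 0.185, 1.69 ± 0.145 and 0.217 ± 0.118. lovit was at 130 ± 19.03, 138 ± 9.03 and 119 ± 8.27 CPM. Without the called elements the sums were 0.106 ± 0.0515, 0.213 ± 0.0579 and 0.463 ± 0.185 CPM in Snap25 and 0.0398 ± 0.0561, 0.266 ± 0.166 and 0.039 ± 0.0269 in lovit. The sums were not tested, and the part of reads from the surrounding genes in them was not tested.

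**Figure D5:**
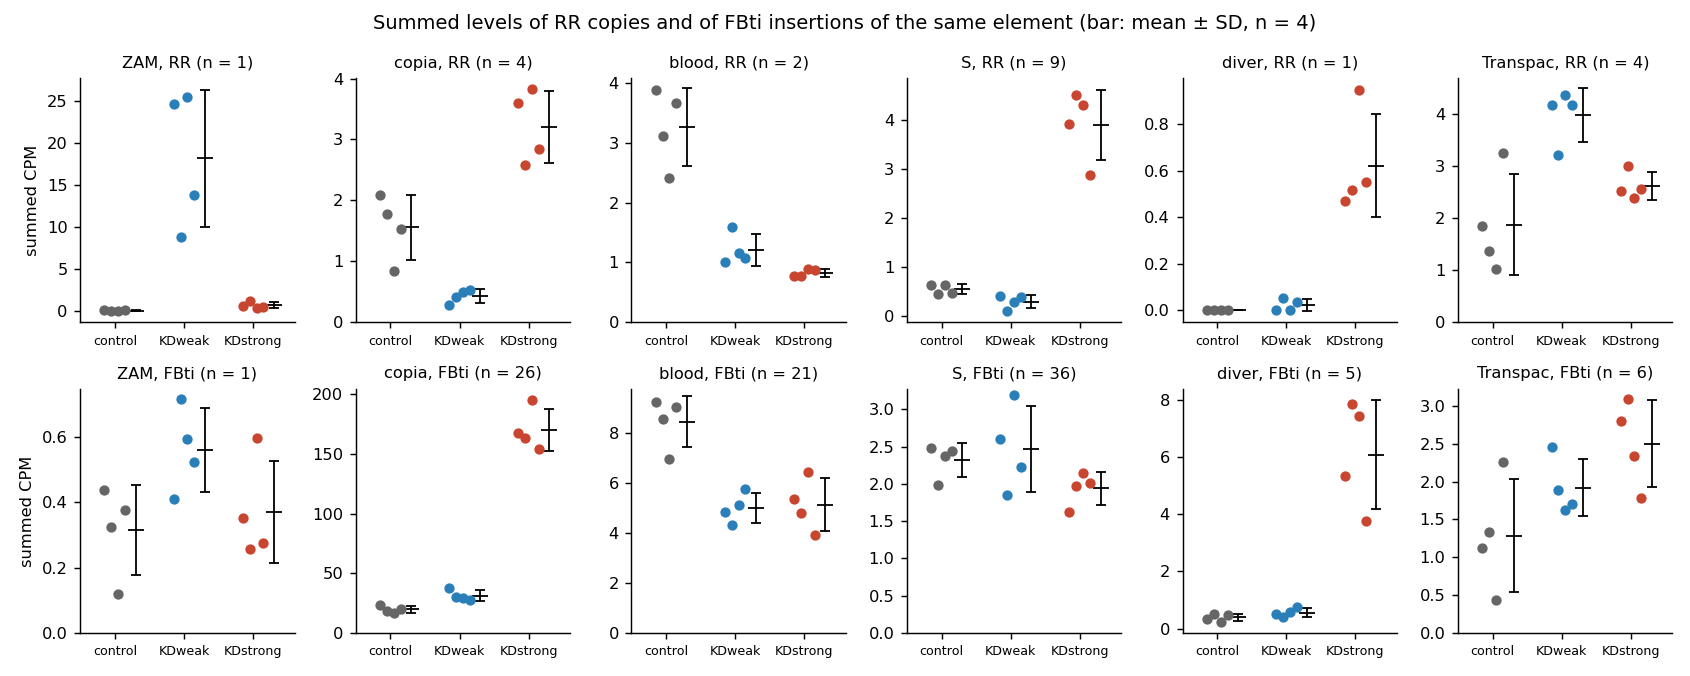
Summed CPM (vertical axes, each from 0) of the RR copies (upper row) and of the FBti insertions (lower row) of 6 elements in every library; n in a panel title is the number of features summed, and bars are the mean ± SD of the 4 libraries. copia and diver are highest in ND-75KDstrong and blood is highest in control in both rows, whereas ZAM differs widely in the upper row alone and S is high in ND-75KDstrong in the upper row alone. Transpac has its highest mean in ND-75KDweak in the upper row and in ND-75KDstrong in the lower row.

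Genes that silence transposons include the Piwi proteins and the factors that make and use their small RNAs. Of 46 names on the list, which holds Panx also as panx, 42 matched a counted feature. Unmatched names, among them Sov and ADAR, may be spelled otherwise in the annotation and are not shown to lack reads. In ND-75KDweak against control 1 of 32 tested was higher and none lower, namely squ (log2 fold change 2.56 ± 0.29, edgeR adjusted p = 0.000512), a factor of the germline small-RNA pathway. In ND-75KDstrong against control 2 of 36 were higher, the Piwi protein gene aub (1.25 ± 0.28, adjusted p = 0.0414) and the Tudor domain gene qin (1.70 ± 0.22, adjusted p = 0.00157). Between the knockdowns 1 of 34 was higher, qin, and 1 lower, mino. Over all tested features 6.54%, 2.37% and 11.3% were called in these comparisons, both directions together. Levels on the list ranged from 0.0101 CPM for cuff to 214 CPM for AGO2 in control, with aub at 0.726 ± 0.118, 0.925 ± 0.318 and 1.76 ± 0.454 CPM and piwi at 0.579 ± 0.341, 0.59 ± 0.3 and 0.319 ± 0.161. The median log2 fold change of the tested list members was 0.14, 0.12 and 0.0044, beside -0.0065, -0.015 and 0.016 for all features.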

How the data were processed

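RNA was sequenced from 12 libraries of pooled fly heads. Per the labels and the submitters' processing notes, the authors trimmed reads with fastp, aligned them with HISAT2, counted them with featureCounts and used DESeq2. Which versions and genome build they used, and how reads matching several places were treated, is not given in the sources used here. Deposited counts are whole read counts per feature for 3 pairs of genotypes. The library kit does not mark strand. The tables repeat libraries with identical counts and list a feature only if its pair had reads, so 24 RR values were taken as 0. The 48 per-library columns of normalized counts and FPKM and the authors' own fold changes and p-values were not used. All 129 RR and 2625 FBti positions equalled those of the supplied annotation, which gave element names.

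Each pair was fitted on its own 8 libraries with edgeR 4.0.16 in R 4.3.3 (quasi-likelihood test, TMM scaling, filterByExpr with a count minimum of 10 and a total minimum of 15, Benjamini-Hochberg adjustment over all features, threshold 0.05). The fit was tested on simulated counts. CPM used TMM factors over all 12 libraries. Named elements were every called one, the 8 highest by CPM and by CPM per kb, and those with 0 reads in 1 genotype and at least 10 in each library of another. Other elements are named as chosen after their values were seen. Alternatives were DESeq2 1.42.0, RLE scaling, no filter, 1 fit of all libraries, a replicate block, fewer features and left-out libraries. Members and lists were chosen with earlier results of these data known.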

Additional observations from a re-analysis of the deposited data

Results flagged for a closer look

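In 4 of the 47 groups of 4 libraries examined, 1 library lay apart from the other 3 by more than Dixon's 95% limit, where chance gives about 1 in 20. S RR45003 had 0.0313 CPM, a single read, in ND-75KDweak replicate 3 and none in the other ND-75KDweak libraries. 1731 RR43083 stood at 1.23 CPM in ND-75KDweak replicate 1, below 1.48 to 1.502 in the others. Transpac RR48367 stood at 1.13 CPM in ND-75KDweak replicate 2, above 0.751 to 0.774 in the others. Transpac RR48364 stood at 1.28 CPM in control replicate 4, above 0.555 to 0.583 in the others.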

How the results depend on the processing

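With no filter on low counts the RR calls rose from 6 to 12 in ND-75KDweak against control, from 5 to 8 in ND-75KDstrong against control and from 9 to 17 between the knockdowns, more features being tested. Leaving out 1 library gave 5 to 8, 3 to 4 and 9 to 12 calls, with 3 in ND-75KDstrong against control without control replicate 2 or ND-75KDstrong replicate 1. DESeq2, RLE scaling and the fit on protein-coding genes and RR elements alone made the same calls in all 3 comparisons. Replicate numbers are shared by the genotypes, and deviations of same-numbered libraries from their group means had correlations of -0.43 to 0.14. Differently numbered libraries were not set beside them, so whether the numbers pair the samples cannot be told. With a replicate block the calls were 6, 3 and 8. This lost ZAM RR48383 and copia RR48341 in ND-75KDstrong against control and RR51048 between the knockdowns. Over all alternatives the called elements kept their direction and side of the threshold in 273 of their fits and missed the threshold in the same direction in 18, with none reversed, and fell below the count filter in 9 more (4 of RR48341 and 5 of RR51048). The summed RR level without 1 library was 18.1 to 21.7 CPM in control, 36.0 to 44.0 in ND-75KDweak and 25.01 to 27.5 in ND-75KDstrong. It was 21.5 CPM in ND-75KDweak without the ZAM copy, and over the RR elements that overlap no other feature it was 7.71 in control, 28.7 in ND-75KDweak and 14.1 in ND-75KDstrong. The median RR element had 20 reads over all libraries, and 108 of the 129 were below the count filter in every comparison.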

Other observations

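Some RR elements had reads in a single genotype: 5 in ND-75KDstrong, 2 in ND-75KDweak and 2 in control. Those of ND-75KDstrong included copia RR48399 with 55 reads, F RR48350 with 13 and 412 RR48311 with 12, and those of the other genotypes had at most 3 reads each. A read was missing from every library of control for 23 RR elements, of ND-75KDweak for 17 and of ND-75KDstrong for 13. Such counts depend on depth, and the ND-75KDstrong libraries were the deepest, with a median of 3.12e+07 counts against 2.55e+07 in ND-75KDweak and 2.59e+07 in control. The same shares over all features were not taken, so these counts do not set the RR elements apart.

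G6 RR48310 (X:21954524-21956564), a copy of a non-LTR retrotransposon whose nearest annotated gene is the piRNA cluster transcript flam at 163793 bp, had 1, 0, 0 and 2 reads in control, 38, 3, 33 and 22 in ND-75KDweak and none in ND-75KDstrong. ND-75KDweak was at least 37.4-fold above ND-75KDstrong by the floor of 3 reads over the group. The 3 FBti insertions of G6 summed to 0.44 ± 0.134, 2.24 ± 1.09 and 0.77 ± 0.311 CPM. F RR48317, in an intron of lovit, had no read in control and 9, 1, 6 and 10 in ND-75KDweak, at least 8.69-fold higher by the same floor. gypsy6 RR48376, in an intron of Dbp80, had no read in control and 9, 3, 16 and 6 in ND-75KDstrong, at least 9.73-fold higher. All of these were below the count filter and were named after their values were seen.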
